A study of Mus musculus with 22 samples.

Results

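The genes described are those of the enzymes that write and erase methyl and acetyl groups on histones and methyl groups on DNA, in astrocyte RNA of the mouse optic nerve after a rise in intraocular pressure (IOP). They were found by symbol among protein-coding genes: the Kmt, Kdm, Hdac, Kat and numbered Setd families, Ehmt1 and Ehmt2, Dnmt1 and the Dnmt3 genes, and Tet1 to Tet3. The sex-linked Kdm5c, Kdm5d and Kdm6a were left out by the rule. This gave 59 genes of the 29367 in the count table, placed in 8 classes by role. The mice carried the ribotag allele (Rpl22 HA/HA), in which Cre from the GFAP-Cre 73.12 transgene adds an HA tag to a ribosomal protein, and were otherwise WT. The tagged ribosomes with their mRNA were pulled down with an antibody against HA. Mice of 3 to 4 months had microbeads injected into 1 eye, and the optic nerve head (ONH, unmyelinated) and the optic nerve proper (ONP, myelinated) were dissected 7 or 30 days later. For each library the tissue of 4 mice was pooled, with 2 of each sex. There were 7 libraries per region at 30 days and 4 per region at 7 days. Per the study's methods, the ONH and ONP of a mouse were both used. The 30 day libraries of both regions with the same number were taken to come from the same mice, which the labels do not state. By those methods the 7 day ONH and ONP libraries would also share mice. Their column numbers (1, 3, 5 and 6 in the ONH, 1, 2, 5 and 6 in the ONP) match only in part and are not in the labels. They were therefore not paired and were treated as independent. All groups carried the tag, the transgene and the beads, and uninjured tissue was not analysed here, so every comparison is between days or between regions of injected nerves. A pool of 4 mice hides the spread between single animals.

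Histone lysine methylation is read by place: methyl groups on H3K4 mark active promoters and enhancers, those on H3K36 mark transcribed gene bodies, and those on H3K9 and H4K20 mark silent or compact chromatin. Acetyl groups, added by acetyltransferases and removed by deacetylases, open chromatin. DNA methyltransferases (Dnmt genes) place methyl groups on cytosines of CG pairs, and the TET dioxygenases (Tet genes) oxidise them as the first step of removal. In glia these enzymes are best known for their part in cell identity, and class I histone deacetylases are known to be needed for oligodendrocyte maturation.

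Libraries held 16292489 to 33307092 counts. All 10 astrocyte markers were detected in every group, with summed levels of 15245 to 33733 CPM over the 22 libraries (CPM, counts per 1000000 counts of the library size after edgeR scaling). The 10 oligodendrocyte markers were not absent from the tagged fraction. Their sum was 18973 to 36038 CPM in the ONH at 7 days, 13870 to 41828 in the ONH at 30 days, 82800 to 108261 in the ONP at 7 days and 26121 to 84745 in the ONP at 30 days. In such bulk samples, fewer cells of a type and less RNA per cell cannot be told apart. Photoreceptor and pigment cell markers were higher in the ONH than in the ONP at both days, with ONH library 6 at 7 days highest for photoreceptor markers (5186 CPM).

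Levels of different genes were compared per length, as TPM (counts per base of transcript, scaled to the same sum in each library) from the counts and the longest annotated coding transcript. Over the 22 libraries, the highest of the enzyme genes was Hdac1, the catalytic deacetylase of several repressor complexes, at 153 ± 24.0 TPM (SD, n = 22, all groups together). Setd3, which methylates actin, followed at 132.8 ± 19.99 TPM, within the spread of Hdac1. Among the other classes, Kat5 (60.5 ± 7.49 TPM) led the acetyltransferases and Hdac11 (40.76 ± 22.02 TPM) the class II and IV deacetylases. Kmt2e (34.0 ± 8.04 TPM) led the genes classed as H3K4 methyltransferases, and Ehmt2 (23.2 ± 3.68 TPM) the H3K9, H3K36 and H4K20 methyltransferases. The classes are listings of genes, and enzyme activity was not measured. Kdm1a led the demethylases at 22.1 ± 8.29 TPM and Dnmt3a the DNA class at 15.6 ± 5.87 TPM. The place of Hdac11 came from the ONP, at 61.0 ± 7.71 TPM (SD, n = 4) at 7 days and 58.4 ± 17.0 (n = 7) at 30 days. In the ONH at 7 days its level was 17.4 ± 5.45 TPM, with means of 26.0 for Hdac4 and 23.3 for Hdac5 (n = 4), and at 30 days it was at 24.9 beside 24.8 for Hdac5 (n = 7). In the ONP at 7 days Kdm4b had the highest mean of the demethylases (22.4 ± 2.56 TPM, n = 4). Deacetylases and acetyltransferases thus filled 8 of the 10 top places, and the large methyltransferases Kmt2a (1.87 ± 0.85 TPM) and Setd1b (0.61 ± 0.15 TPM) lay near the bottom. The lowest levels were those of Dnmt3b, Kdm4d and Dnmt3c, which had 0 to 149, 0 to 32 and 0 to 30 counts per library. Dnmt3c is a near copy of Dnmt3b, so the split of reads between them is uncertain. Every one of the 59 genes passed the filter on low counts in at least 1 comparison.

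The first question was how the ONP changed from 7 to 30 days, while the pressure rise resolves. Many of the enzyme genes were lower at 30 days: 14 of 59 fell and 1 rose. Over all 15491 genes tested, 17.0% changed, 7.82% upward and 9.21% downward, against 1.69% and 23.7% of the enzyme genes. The log2 fold change (log2FC) was negative for 48 of the 59, with a median of -0.32 against -0.01 over all genes tested. The fall was spread over the classes: 2 of 7 in the DNA class, 3 of 8 H3K4 methyltransferases, 2 of 6 H3K9, H3K36 and H4K20 methyltransferases, 4 of 15 demethylases, 2 of 8 acetyltransferases and 1 of 7 class II and IV deacetylases. The only rise was in a class I deacetylase, and none of the 4 other SET domain genes passed the threshold in either direction. With scaling by library size only, which moves the median of all genes to 0.11, the count was 10 lower and 2 higher, and the split of all genes turned from 1211 higher and 1427 lower to 1934 higher and 966 lower. The median of the enzyme genes stayed negative with that scaling (-0.21). DESeq2, which called 20.2% of all genes, called 15 lower and 2 higher.

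**Figure D1:**
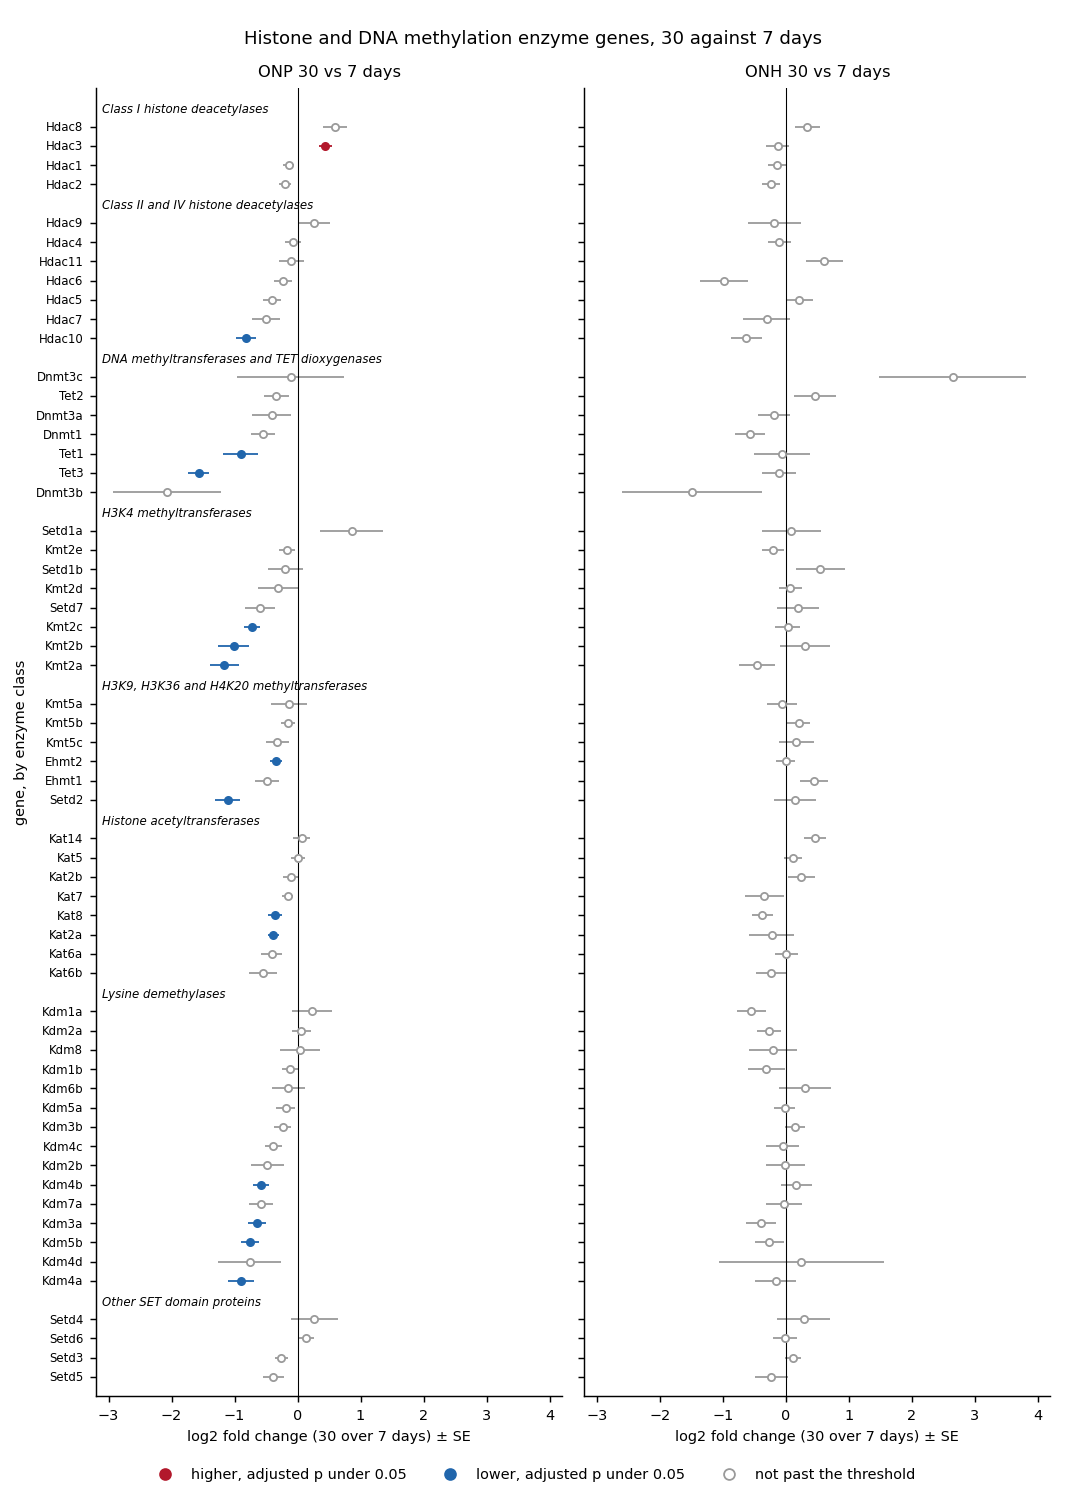
Log2 fold change from 7 to 30 days with its standard error for each of the 59 enzyme genes, in the ONP (left) and the ONH (right), grouped by class. Filled blue and red points passed an adjusted p-value of 0.05 (14 lower and 1 higher in the ONP, 0 in the ONH) and open grey points did not.

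Tet3, a TET dioxygenase (ENSMUSG00000034832, chr6:83362373-83459084, mm10), had the largest fall among the genes that passed the threshold and the smallest p of the 59. Its level in the ONP was 24.4, 32.2, 36.6 and 41.8 CPM at 7 days, and at 30 days it ranged from 9.47 to 14.1 with a median of 10.6. The groups did not overlap, and the lowest 7 day library stood well above the highest 30 day one. The log2FC was -1.57 (SE 0.16, adjusted p-value 0.000351), a 2.97-fold lower level, and Tet3 ranked 13 of 15491 genes by p. Tet1, of the same family, was at 17.7, 26.9, 27.7 and 38.9 CPM at 7 days and at 8.36 to 22.9 (median 13.4) at 30 days. Its groups overlapped (log2FC -0.90, SE 0.27, adjusted p-value 0.0396). Tet2 had a log2FC of -0.34 and did not pass the threshold.

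Among the writers of H3K36 and H3K4 methylation, Setd2, the main enzyme that trimethylates H3K36 behind the polymerase (chr9:110532597-110618633), was at 18.8, 19.2, 19.2 and 25.5 CPM at 7 days and 5.59 to 12.5 (median 9.14) at 30 days. All 7 libraries at 30 days lay below all 4 at 7 days, with a log2FC of -1.11 (SE 0.20, adjusted p-value 0.00388). Kmt2a, which methylates H3K4 at promoters (chr9:44803355-44881296), fell from 9.81, 15.6, 22.1 and 23.2 CPM to 5.36 to 9.4 (median 8.12), with a log2FC of -1.16 (SE 0.23, adjusted p-value 0.00614). Its relative Kmt2b fell from 4.02 to 6.97 CPM at 7 days to 2.08 to 3.7 at 30 days, with a log2FC of -1.01 (SE 0.25, adjusted p-value 0.0167). Kmt2c, which places single methyl groups on H3K4 at enhancers (chr5:25271798-25498783), fell from 46.8, 54.7, 62.9 and 66.1 CPM to 26.1 to 40.8 (median 35.7), with a log2FC of -0.73 (SE 0.13, adjusted p-value 0.00408). These 4 genes had no overlap between days. Ehmt2, which methylates H3K9, showed a smaller fall with overlapping groups (log2FC -0.34, SE 0.10, adjusted p-value 0.0303).

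The 250 bases just upstream of the start of Setd2, Kmt2a and Kmt2c are shown, on the gene's strand from RefSeq (GRCm38.p6). Of the windows of this kind found for genes that fell, these held the most CG pairs. Every CG pair, the substrate of the DNA enzymes above, is in capitals.
Setd2, chr9:110532347-110532596, plus strand: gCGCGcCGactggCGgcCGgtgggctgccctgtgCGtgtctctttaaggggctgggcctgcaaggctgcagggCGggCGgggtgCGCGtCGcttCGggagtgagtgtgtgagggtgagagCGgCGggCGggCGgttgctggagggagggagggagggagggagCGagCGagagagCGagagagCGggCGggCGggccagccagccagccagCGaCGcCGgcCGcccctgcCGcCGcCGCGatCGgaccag
Kmt2a, chr9:44881290-44881539, minus strand: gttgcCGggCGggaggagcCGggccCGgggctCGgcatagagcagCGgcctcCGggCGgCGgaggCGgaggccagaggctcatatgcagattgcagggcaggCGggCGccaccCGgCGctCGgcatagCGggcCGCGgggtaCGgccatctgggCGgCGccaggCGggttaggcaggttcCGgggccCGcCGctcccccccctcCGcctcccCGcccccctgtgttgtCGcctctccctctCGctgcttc
Kmt2c, chr5:25498784-25499033, minus strand: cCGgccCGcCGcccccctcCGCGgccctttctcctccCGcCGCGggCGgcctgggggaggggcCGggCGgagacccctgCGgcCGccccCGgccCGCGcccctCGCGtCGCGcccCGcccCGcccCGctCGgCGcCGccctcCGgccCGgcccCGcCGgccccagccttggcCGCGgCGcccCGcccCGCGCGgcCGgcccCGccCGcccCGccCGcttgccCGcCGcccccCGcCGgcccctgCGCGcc
These windows hold 31, 29 and 48 CG pairs. The 11 windows found for genes that fell held 10 to 48, with a median of 17, and the median of the 35 others was also 17. Windows were found for 46 of the 59 genes, with 0 to 56 CG pairs and a median of 17, against a median of 15 for 10928 coding genes tested. The GC box (GGGCGG on either strand, which itself holds a CG pair) was in 9 of the 11 windows of genes that fell in the ONP, in 20 of the 35 others and in 58.9% of all coding genes tested. The CCAAT box (CCAAT on either strand) was in 4 of those 11 windows, in 16 of the 35 and in 36.4% of all. Each window lies before the RefSeq start nearest to the gene's 5' end, and 5 of the 46 lie over 1000 bases from that end, those of Tet1 and Tet3 among the genes that fell. Without these 5, the GC box was in 7 of 9 windows of genes that fell and in 18 of 32 others, and the CCAAT box in 3 of 9 and in 15 of 32. These are counts of letters and not of bound sites.

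Among the demethylases, Kdm5b, which removes methyl groups from H3K4, was at 29.7, 43.4, 43.5 and 48.2 CPM in the ONP at 7 days and at 22.3 to 31.2 (median 24.1) at 30 days, with a single overlap (log2FC -0.76, SE 0.14, adjusted p-value 0.00425). Kdm4a and Kdm4b act on H3K9 and H3K36. Kdm4a fell from 17.7, 20.3, 20.4 and 29.2 CPM to 7.66 to 15.9 (log2FC -0.90, SE 0.20, adjusted p-value 0.0117), with no overlap. Kdm4b was at 37.3 to 51.1 CPM at 7 days and at 25.3 to 38.8 at 30 days (log2FC -0.58, SE 0.13, adjusted p-value 0.0101). Kdm3a, an H3K9 demethylase, fell from 26.9 to 33.2 CPM at 7 days to 15.1 to 24.2 at 30 days with no overlap (log2FC -0.64, SE 0.14, adjusted p-value 0.0115). Writers and erasers of the same mark were thus among the genes that fell.

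Among the acetylation enzymes, 3 genes fell and 1 rose. Kat2a, the acetyltransferase of the SAGA complex, had a log2FC of -0.38 (SE 0.09, adjusted p-value 0.0162), and Kat8, which acetylates histone H4, one of -0.35 (SE 0.11, adjusted p-value 0.0482). Hdac10, a class II enzyme that also acts on polyamines, fell from 18.5, 19.2, 20.4 and 24.7 CPM to 8.54 to 14.7 (median 12.6) with no overlap, a log2FC of -0.82 (SE 0.16, adjusted p-value 0.0059). Hdac3, a deacetylase that works in corepressor complexes, was the gene that rose. Its level was 58.7, 60.6, 63.1 and 69.1 CPM at 7 days and 70.8 to 101 (median 89.0) at 30 days, with no overlap (log2FC 0.44, SE 0.11, adjusted p-value 0.0162). Groups failed to overlap for 8 of the genes that fell and for Hdac3, where 5.79% of all genes tested were apart downward and 6.2% upward.

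**Figure D2:**
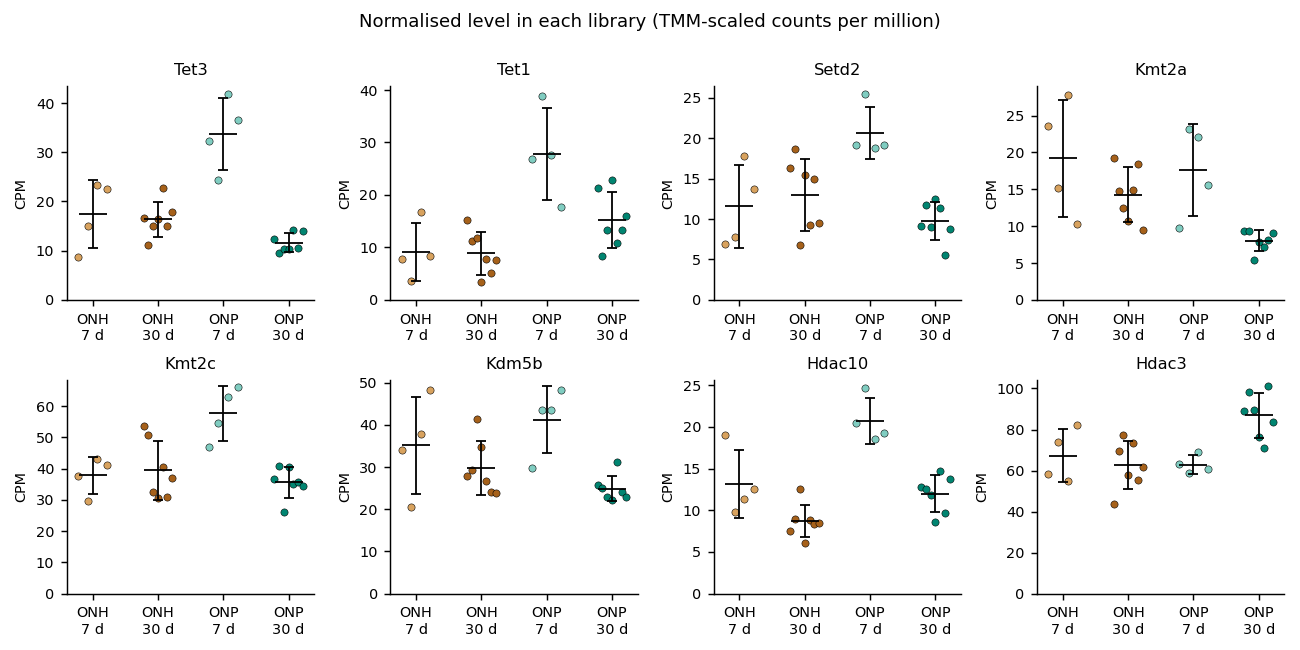
Level in CPM of 8 enzyme genes in each library (points), by region and day, with the group mean and SD (bars). For Tet3, Setd2, Kmt2a, Kmt2c and Hdac10 all 7 ONP libraries at 30 days lay below all 4 at 7 days, and for Hdac3 all lay above.

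Other measures moved with this comparison, and their part in the result was not tested. Oligodendrocyte markers fell (8 of 10 genes, median log2FC -0.84), as did 3 of 6 endothelial markers (median log2FC -1.68). None of the 8 microglia markers passed the threshold, and all 8 had a negative log2FC (median -0.43). Their sum in the ONP was 1297 to 2169 CPM (median 1646) at 7 days and 208 to 3414 (median 336) at 30 days. The summed oligodendrocyte markers of ONP library 5 at 30 days, 84745 CPM, lay inside the 7 day range. Tet3 was 14.1 CPM in that library, the highest of the 7 (next 14.0). Library 5 was also the highest of the 7 for Hdac10 (14.7 CPM), Kdm4a (15.9), Kdm4b (38.8), Kdm5b (31.2) and Kmt2b (3.7). It was the lowest for Hdac3 (70.8 CPM). Its Kdm4b and Kdm5b levels lay inside their 7 day ranges. The other genes that fell, Tet1, Setd2, Kmt2a, Kmt2c, Kdm3a, Ehmt2, Kat2a and Kat8, were not highest there. Longer transcripts were lower at 30 days: over 13977 coding genes, Spearman's rho between transcript length and log2FC was -0.26, across genes, which share the same libraries. Across the 59 enzyme genes rho was -0.44. In 5 bins of equal size by length, the median log2FC of coding genes went from 0.18 in the shortest to -0.21 in the longest bin. The enzyme genes are long, with a median of 4853 bases against 3189, and 27 of the 59 were in the longest bin. There 17.6% of all coding genes fell, against 25.9% of the enzyme genes. With levels corrected for transcript length and GC content, 12 enzyme genes were lower and Hdac3 did not pass the threshold (log2FC 0.31, adjusted p-value 0.12), while Tet3 was at -1.30 (adjusted p-value 0.000566).

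**Figure D3:**
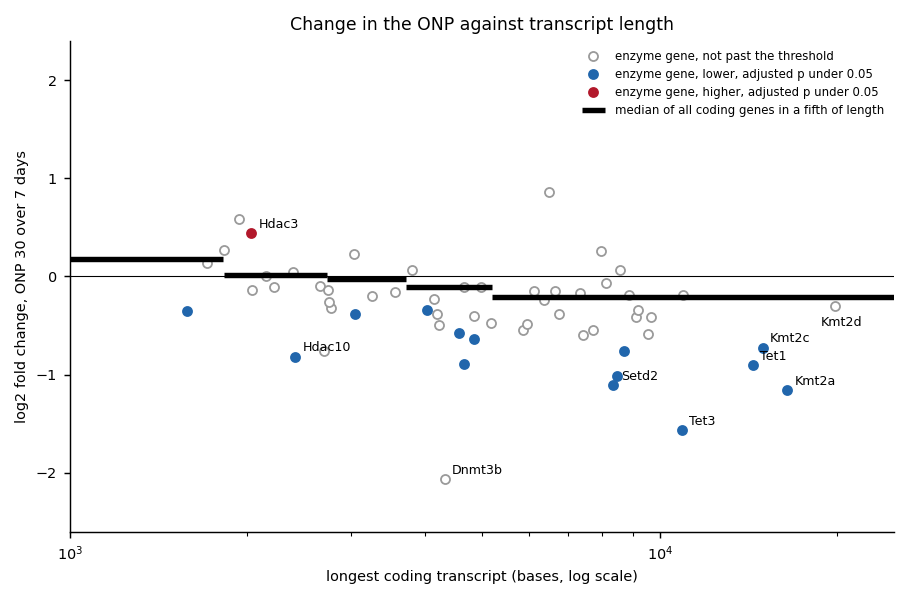
Log2 fold change in the ONP from 7 to 30 days against the length of the longest coding transcript (log scale) for the 59 enzyme genes, with black bars for the median of all coding genes in each of the 5 bins of length, clipped at the edges of the axis. The bars step down from 0.18 to -0.21, and 7 of the 14 genes that fell are in the longest bin.

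Of the 15 calls, 9 were kept whichever single library was left out: Tet3, Setd2, Kmt2c, Kdm5b, Hdac10, Kmt2a, Kdm4b, Kdm3a and Hdac3. Kdm4a (adjusted p-value 0.0564) and Kmt2b (0.0632) were lost without ONP library 6 at 7 days, Kat2a was lost without library 1 or 6 at 7 days, and the calls of Ehmt2, Tet1 and Kat8 were lost in 7, 8 and 10 of the 11 fits. Without ONP library 6 at 7 days, 9 genes were lower in place of 14, and with all 4 groups in a single fit 7 were lower and none higher.

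The same comparison in the ONH gave no call. None of the 59 genes passed the threshold with edgeR or DESeq2, and 7 had an unadjusted p under 0.05. Of all 15668 genes tested, 0.0% passed with edgeR, 13.9% had an unadjusted p under 0.05, and 2.49% passed with DESeq2. Without ONH library 5 at 7 days 167 of all genes passed, none of them an enzyme gene of these 59. The median log2FC of the enzyme genes was -0.03, against -0.02 for all genes. The smallest p was that of Kat14, an acetyltransferase of the ATAC complex, at 22.04, 26.9, 30.9 and 32.7 CPM at 7 days and 33.5 to 53.7 (median 36.5) at 30 days. It was the only enzyme gene without overlap between days, which 1.76% of all genes showed upward and 0.53% downward (log2FC 0.46, SE 0.18, adjusted p-value 0.282). The next were Hdac6, the tubulin deacetylase (log2FC -0.98, SE 0.38, adjusted p-value 0.287), Hdac10 (-0.62, SE 0.25, 0.308), Kdm1a, an H3K4 demethylase (-0.55, SE 0.23, 0.317), and Dnmt1 (-0.56, SE 0.24, 0.327). In the ONH, Tet3 was at 8.62, 15.1, 22.5 and 23.4 CPM at 7 days and 11.2 to 22.7 (median 16.4) at 30 days, so that the 30 day libraries lay within the range of the 7 day ones (log2FC -0.11, SE 0.27). Setd2 likewise ranged from 6.89 to 17.8 CPM at 7 days and from 6.83 to 18.7 at 30 days. The spread of the 4 ONH libraries at 7 days was wide. Setd2 had a log2FC of 0.14 in the ONH (95% interval -0.51 to 0.80), and its ONP estimate has an error of its own. The difference between the regions is tested by the interaction below, which Setd2 did not pass.

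Whether the change over time differed between the regions was tested with an interaction contrast over all 4 groups, as the ONP change minus the ONH change. Tet3 passed it, with a difference of -1.45 (SE 0.32, adjusted p-value 0.0407), and none of the other 58 did. Over all 16748 genes tested, 0.543% passed, and 0.394% did so in this direction. DESeq2, which called 2.28% of all genes, gave Tet3 an adjusted p-value of 0.0046. The call rests on a narrow margin: it was lost in 18 of the 22 fits with 1 library left out (adjusted p-values up to 0.129), with scaling by library size only (0.0781) and with the correction for length and GC content (0.0654). With same-numbered 30 day libraries as blocks, a limma-voom fit added after the data were seen gave Tet3 a difference of -1.56 (adjusted p-value 0.0162) and called no other enzyme gene. The next largest differences by p were Kmt2c (-0.76, SE 0.24, adjusted p-value 0.155), Ehmt1 (-0.93, SE 0.30, 0.162) and Setd2 (-1.25, SE 0.40, 0.166), chosen here after their values were seen. The median difference of the enzyme genes was -0.34, against 0.01 for all genes. Of the 10 oligodendrocyte markers all had a negative difference (median -0.87) and 1 passed the threshold, and their part in the Tet3 difference was not tested.

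The DNA methyltransferases had no call in either region over time with all libraries. Dnmt1, which copies methylation after replication, was at 14.5 to 27.7 CPM in the ONP at 7 days and at 10.9 to 20.7 at 30 days (log2FC -0.55, SE 0.20, adjusted p-value 0.0726), with close to the same difference in the ONH given above. Dnmt3a, which sets new methylation, varied within every group. Its ONP level was 60.1, 63.8, 104 and 114 CPM at 7 days and 31.4 to 94.1 (median 67.3) at 30 days, with log2FC values of -0.41 (ONP) and -0.18 (ONH). Dnmt3b was at 0, 0.675, 5.52 and 6.11 CPM in the ONP at 7 days, and the 2 high libraries held 90 and 149 counts. At 30 days it was at 0.223 to 1.56 CPM (log2FC -2.07, SE 0.86, adjusted p-value 0.116). Dnmt1 passed in the ONP without library 5 at 7 days (log2FC -0.72, adjusted p-value 0.0204) and Dnmt3b without library 2 at 7 days (-2.48, 0.0298). Dnmt3c had log2FC values of -0.11 in the ONP and 2.65 in the ONH, with standard errors of 0.85 and 1.17 on these few counts.

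The second question was how the regions differ. At 30 days 24 of the 58 genes tested differed, 9 higher and 15 lower in the ONH. That is 15.5% higher and 25.9% lower, where 41.8% of all 15133 genes tested differed, 21.8% higher and 20% lower. The median log2FC (ONH over ONP) was 0.03. DESeq2 called 9 higher and 17 lower, and 36.8% of all genes. By class, with no test between classes, of the 7 class II and IV deacetylases 5 were lower and 1 higher, of the 4 class I deacetylases 2 were lower, and of the 14 demethylases tested 4 were lower and none higher. Of the 8 genes classed as H3K4 methyltransferases 3 were higher and 1 lower, of the 4 other SET domain genes 2 were higher, and in the DNA class 2 of 7 were higher. With levels corrected for transcript length and GC content, 9 were higher and 9 lower. Hdac5, Hdac6, Hdac10, Kdm4b, Kdm8, Kat2a, Kmt2e, Setd4, Tet2 and Tet3 then no longer passed, and Hdac7, Kat14, Setd5 and Tet1 did. Spearman's rho between transcript length and log2FC was -0.19 over all coding genes and 0.28 across the enzyme genes. In the main fit Tet1 of the DNA class did not pass, with a log2FC of -0.97 to -0.63 when a library was left out. It was called lower in the ONH with DESeq2, limma-voom, library size only, at least 10 counts in every sample, or the length and GC correction. It was also called lower without ONH library 1 or 3 or ONP library 2 or 5. Kdm4d was not tested at 30 days.

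**Figure D4:**
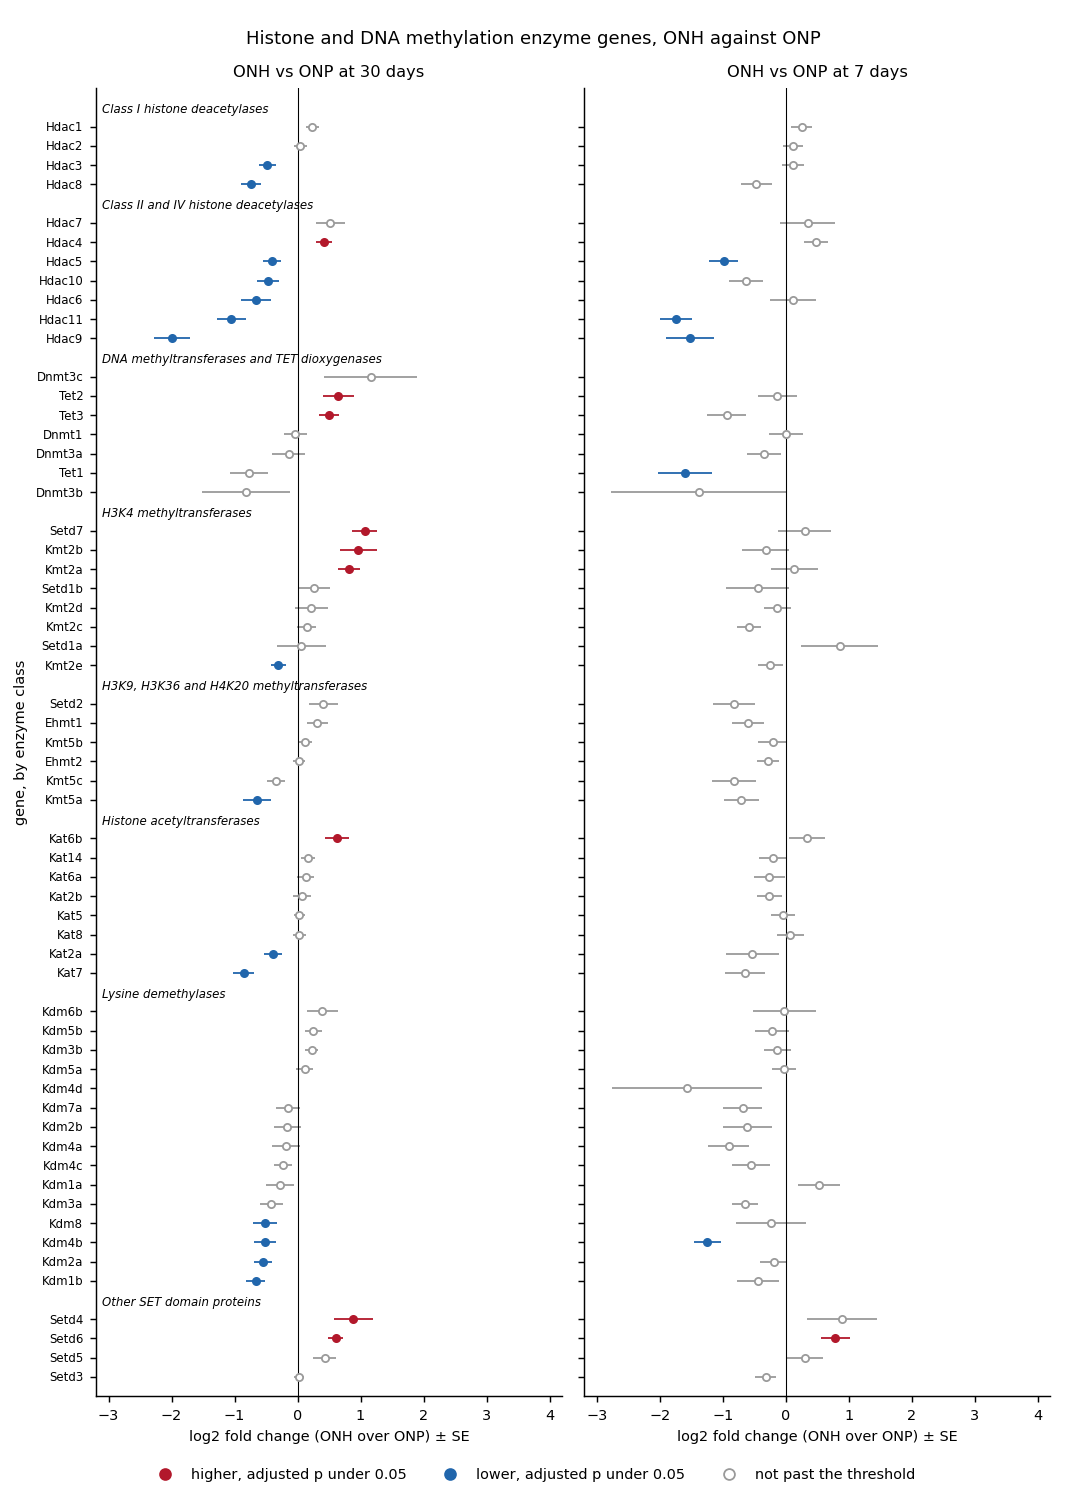
Log2 fold change of the ONH over the ONP with its standard error for each enzyme gene at 30 days (left) and 7 days (right), grouped by class. Filled points passed an adjusted p-value of 0.05: 9 higher (red) and 15 lower (blue) in the ONH at 30 days, and 1 higher and 5 lower at 7 days.

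Hdac9, a class II deacetylase (chr12:34047580-34917095), had the largest difference. At 30 days it was at 1.31 to 3.8 CPM (median 2.2) in the ONH and 5.25 to 14.3 (median 8.66) in the ONP, with no overlap (log2FC -1.99, SE 0.29, adjusted p-value 7.15e-05). At 7 days the ONH libraries held 1.65, 2.3, 2.8 and 3.53 CPM and the ONP libraries 6.11, 7.48, 7.76 and 8.66, again apart (log2FC -1.52, SE 0.38, adjusted p-value 0.024). Hdac11, the class IV deacetylase (chr6:91156665-91174692), was at 18.9 to 45.8 CPM in the ONH and 39.1 to 101 in the ONP at 30 days (log2FC -1.05, SE 0.23, adjusted p-value 0.00181). Its 7 day levels were 13.7, 18.2, 18.8 and 31.8 CPM in the ONH and 60.6, 64.1, 77.3 and 77.4 in the ONP (log2FC -1.74, SE 0.26, adjusted p-value 0.00179). Hdac5, a further class II enzyme, was lower in the ONH at both days, with a log2FC of -0.40 (SE 0.14, adjusted p-value 0.034) at 30 days and -0.99 (SE 0.22, 0.0162) at 7 days. Hdac6 and Hdac10 were lower at 30 days (log2FC -0.66 and -0.46) and did not pass the threshold at 7 days, and Hdac4 was the class II gene that was higher (log2FC 0.42, SE 0.12, adjusted p-value 0.0137). Hdac7 was tested and not called at either day in the main fit. At 30 days it was called with the length and GC correction and without ONH library 2.

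The 250 bases upstream of the start of Hdac9 are shown because they stand at the other end of the range from the windows above, with 0 CG pairs. With no CG pair there are no capitals. The window holds the TATA box (TATAAA, searched on both strands), which 2 of the 46 windows and 6.33% of all coding genes tested held.
Hdac9, chr12:34917096-34917345, minus strand: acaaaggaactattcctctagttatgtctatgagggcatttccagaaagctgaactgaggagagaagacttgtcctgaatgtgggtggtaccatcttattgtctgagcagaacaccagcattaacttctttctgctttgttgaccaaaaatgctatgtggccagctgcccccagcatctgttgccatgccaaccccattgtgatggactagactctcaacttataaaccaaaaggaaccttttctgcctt

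Among the other genes lower in the ONH at 30 days, Kat7, an acetyltransferase of histones H3 and H4, was at 26.6 to 63.8 CPM in the ONH and 73.6 to 93.0 in the ONP, with no overlap (log2FC -0.86, SE 0.17, adjusted p-value 0.000943). Hdac8, a class I enzyme that deacetylates cohesin, had a log2FC of -0.74 (SE 0.16, adjusted p-value 0.00172) and Hdac3 one of -0.48 (SE 0.13, 0.00864). The demethylases Kdm1b (log2FC -0.67), Kdm2a (-0.55), Kdm4b (-0.52) and Kdm8 (-0.52) were lower, with adjusted p-values from 0.00252 to 0.0397. Kmt5a, which places the first methyl group on H4K20, was lower by a log2FC of -0.65 (SE 0.22, adjusted p-value 0.0279). Kdm1b was even across the ONP libraries at 30 days, from 15.6 to 18.2 CPM, and at 7.73 to 15.7 in the ONH.

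Genes higher in the ONH at 30 days were led by Setd7, which places single methyl groups on H3K4 and on other proteins, at 15.1 to 31.8 CPM (median 24.4) against 7.43 to 16.5 (median 10.2) in the ONP (log2FC 1.07, SE 0.20, adjusted p-value 0.000637). Kmt2b (log2FC 0.97, SE 0.30, adjusted p-value 0.0167), Setd4 (0.88, SE 0.31, 0.031) and Kmt2a (0.82, SE 0.18, 0.002) followed. Setd6, which methylates a subunit of NF-kappaB, was higher in the ONH at both days. It was at 22.1 to 39.2 CPM in the ONH and 15.4 to 21.9 in the ONP at 30 days (log2FC 0.60, SE 0.12, adjusted p-value 0.00115), and at 19.8 to 35.3 and 15.3 to 18.2 CPM at 7 days (log2FC 0.79, SE 0.23, adjusted p-value 0.0446). The groups did not overlap at either day. Tet2 (log2FC 0.65, SE 0.24, adjusted p-value 0.0425), Kat6b (0.63, SE 0.19, 0.0172) and Tet3 (0.49, SE 0.16, 0.02) were also higher. The Tet3 call was lost with no filter on low counts, with the length and GC correction and with all groups in a single fit. At 30 days 2 genes were apart upward (Setd6 and Kmt2a) and 2 downward (Hdac9 and Kat7), where 9.26% and 7.09% of all genes tested were.

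At 7 days 6 of the 58 genes tested differed, 1 higher (Setd6) and 5 lower in the ONH. Over all 14752 genes, 13.2% differed, 6.34% upward and 6.81% downward. DESeq2 called 1 higher and 9 lower, and 19.0% of all genes. Lower were Hdac11, Hdac5 and Hdac9, with the values above, and Kdm4b and Tet1. Kdm4b was at 15.03, 15.5, 19.0 and 24.4 CPM in the ONH and 37.3, 43.8, 44.9 and 51.1 in the ONP (log2FC -1.24, SE 0.21, adjusted p-value 0.00376). Tet1 was at 3.68, 7.7, 8.35 and 16.8 CPM in the ONH and 17.7, 26.9, 27.7 and 38.9 in the ONP (log2FC -1.60, SE 0.43, adjusted p-value 0.0329). The ranges did not overlap for 12 genes that were lower and 1 that was higher, where 11.8% and 9.89% of all genes did not. Tet3 was among those 12 with a log2FC of -0.94 (SE 0.32, adjusted p-value 0.077), opposite in sign to its value at 30 days. The interaction contrast tests whether the difference between regions changed with the day, and not whether its sign turned. A turn in sign was not tested. The comparison between regions at 7 days and the ONP comparison over time use the same 4 ONP libraries at 7 days. Tet3, Tet1 and Kdm4b were high in these libraries. Dnmt3c was not tested at 7 days.

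**Figure D5:**
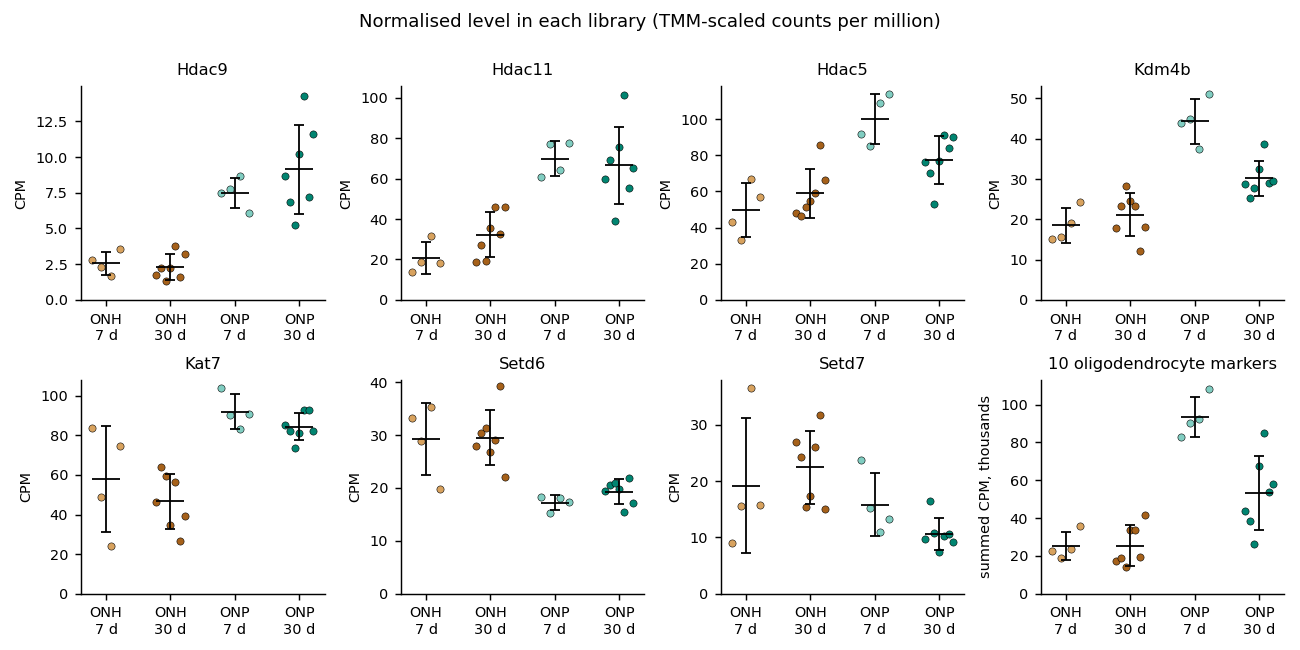
Level in CPM of 7 enzyme genes in each library (points), by region and day, with the group mean and SD (bars), and the summed CPM of 10 oligodendrocyte markers in the last panel. Hdac9 was below 4 CPM in all 11 ONH libraries and above 5 CPM in all 11 ONP libraries, and the marker sum was also higher in the ONP.

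Oligodendrocyte markers differed in the same direction as Hdac9, Hdac11 and Hdac5, with 8 of 10 genes lower in the ONH at 30 days (median log2FC -0.97) and 10 of 10 at 7 days (-1.86), and their part in these differences was not tested. In the ONP at 30 days, library 5 had the highest marker sum (84745 CPM) and the highest levels of Hdac9 (14.3 CPM), Hdac11 (101 CPM) and Hdac5 (91.1 CPM), and library 3 had the lowest of each. The same library 5 had the lowest summed astrocyte markers of the 7 (15739 CPM) and a microglia marker sum of 2925 CPM. In the ONP at 7 days the order was another one for Hdac9: library 6 had the highest oligodendrocyte sum (108261 CPM) and the lowest Hdac9 (6.11 CPM). That library had the highest Hdac5 of the 4 (114 CPM) and the highest Hdac11 (77.4 CPM, next 77.3). Precursor markers were lower in the ONH too (3 of 4 genes at 30 days, 2 of 4 at 7 days). Photoreceptor and pigment cell markers were higher in the ONH, with 11 of 11 genes called at 30 days and 10 of 11 at 7 days, and their part in the genes that were higher was not tested.

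Of the 24 calls between regions at 30 days, 15 were kept whichever library was left out, Hdac9, Hdac11, Setd7, Setd6 and Kat7 among them. Of the 14 such fits, Hdac10 was lost in 11, Hdac5, Setd4, Tet2 and Kmt2e in 9 each, Kdm8 in 7, Hdac6 and Kat2a in 6 each and Kmt5a in 5. With the replicate as a block, which takes same-numbered libraries to come from the same mice, Kmt2b (adjusted p-value 0.0503), Kmt2e (0.0519) and Tet2 (0.0544) no longer passed. At 7 days Hdac11 and Kdm4b were kept in all 8 such fits. Hdac5 was lost without ONP library 5 or 6, Hdac9 and Tet1 were each lost in 5 fits and Setd6 in 7.

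Genes that work with these enzymes were read from 7 lists with 101 genes, of which 100 were tested. In the ONP from 7 to 30 days 5 were higher and 13 lower, with a median log2FC of -0.07, where 7.82% and 9.21% of all genes were. Among the other histone methyltransferases, Ash1l (log2FC -0.64) and Nsd1 (-0.54), which act on H3K36, fell and Nsd3 rose (0.50). Among the deacetylase complexes, the NuRD subunits Gatad2b (log2FC -0.67) and Chd4 (-0.42) fell. Of the 10 partners of the H3K4 methyltransferases only Ncoa6 fell (log2FC -0.72). Gadd45b (log2FC 0.72) and Gadd45a (0.52), which take part in DNA demethylation and stress responses, rose, and Uhrf2, a reader of methylated DNA, fell (-0.59). Among enzymes of the metabolites that these reactions use, Acly, which makes acetyl-CoA, fell by 0.76 on the log2 scale and Idh1 by 0.32. Of the Polycomb genes 1 of 16 fell, Phc1 (log2FC -0.87), and among the sirtuins and other acetyltransferases Sirt3 rose (0.68) while Sirt2 (-0.47) and Ncoa2 (-0.38) fell.

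In the ONH over time 0 of these 100 genes passed the threshold. Between regions 20 were higher and 27 lower in the ONH at 30 days, where 21.8% and 20% of all genes were. At 7 days 2 were higher and 6 lower, where 6.34% and 6.81% of all genes were. At 30 days the Polycomb list had 7 of 16 lower and 2 higher, Phc1 (log2FC -0.91) and Ezh1 (-0.80) among the lower ones, and the metabolite list had 6 of 13 lower and none higher, led by Acly (-1.19). The NuRD helicases Chd3 (log2FC 1.59) and Chd4 (0.77) and the methyl-DNA binding Mbd2 (1.37) were higher in the ONH. Acly, Phc1, Sirt2 (log2FC -1.33) and Ezh1 were also lower in the ONH at 7 days, and Smyd2 was higher at both days (0.88 and 0.93). Sirt2 is an abundant gene of myelinating cells. Chd4 was the one related gene past the interaction contrast (difference -1.09, SE 0.22, adjusted p-value 0.028).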

How the data were processed

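RNA from HA-tagged ribosomes was sequenced as paired reads on an Illumina HiSeq instrument after a Smart-Seq HT preparation, with all libraries made and run together. Per the study's methods, reads were aligned with STAR (2.6.1d) to mm10 and quantified with Salmon (0.14.2) on Ensembl 94 in the bcbio pipeline. The authors deposited expected counts per gene as whole numbers, which were used as they stand, and a table of transformed values that was not used here. The estimated counts of near copies such as Dnmt3b and Dnmt3c rest on how Salmon split shared reads.

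Counts were tested with edgeR (4.0.16, R 4.3.3): filterByExpr, TMM scaling, the quasi-likelihood test, and p-values adjusted by Benjamini-Hochberg over every gene that was tested, with a threshold of 0.05. Each comparison used its own pair of groups, and the interaction used all 4. SE is the log2FC divided by the root of the F statistic, and 95% intervals are the log2FC ± the normal quantile times SE. The p-values cover the spread between these pooled samples. Alternatives used DESeq2 (1.42.0) and limma-voom (3.58.1), other scalings and filters, a correction for length and GC content, a single fit, a block for the 30 day pairs, and each library left out in turn. The fitting steps were tested on simulated data. The enzyme genes and the other lists were chosen with earlier results of these data known. Genes named are all members that passed in a comparison (up to 20, otherwise the 10 largest in each direction), the 5 smallest p-values where none passed, the highest member per length in each class, and the DNA class. The 7 day columns carry numbers that the labels do not give, so their libraries are called by column number and were not paired. At 30 days the same number was taken to mean the same mice, which the labels do not state. Deviations of same-numbered ONH and ONP libraries correlated at r = 0.0746 to 0.494, with 5 of 7 over 0.1. For 3 of the 7 ONH libraries the best match was the ONP library of the same number. Some genes of the related lists are not reported here by name.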

Additional observations from a re-analysis of the deposited data

Results flagged for a closer look

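In 10 of 148 groups of libraries, for 37 named genes in 4 groups each, 1 library stood apart from the others by Dixon's test, where chance gives about 1 in 20, or 7.4. In the ONH at 7 days, library 5 was low for Kat2a (5.93 CPM, the next library at 29.1) and for Kdm1b (5.76 CPM, next 14.8), and library 6 was high for Dnmt3c (0.449 CPM, next 0.0570, on 8 counts and 1 count). In the ONH at 30 days, library 6 was high for Hdac4 (122.7 CPM, next 91.4) and library 4 for Kmt2b (12.3 CPM, next 5.71).

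In the ONP at 7 days, library 2 was high for Setd2 (25.5 CPM, next 19.2) and library 5 for Setd4 (3.41 CPM, next 1.72). In the ONP at 30 days, library 2 was high for Setd7 (16.5 CPM, next 10.8) and for Kat6b (10.6 CPM, next 7.75), and library 5 was high for Kdm5b (31.2 CPM, next 25.8). Setd2, Kdm5b, Setd7, Kat6b, Hdac4 and Kmt2b kept their calls in the comparisons that use these libraries when the library was left out.

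The change from 7 to 30 days differed between the regions for Tet3, with an ONP change minus ONH change of -1.45 (SE 0.32, adjusted p-value 0.0407).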

How the results depend on the processing

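Counts of enzyme genes in the ONH over time stayed at 0 in every alternative. In the ONP over time the count higher was 2 with DESeq2, limma-voom, RLE size factors, library size only or at least 10 counts in every sample, 0 with the length and GC correction or a single fit, and 1 to 2 with a library left out. The count lower was 7 in a single fit, 9 to 14 with a library left out, and between 10 and 16 otherwise. At 30 days between regions the count lower was 9 with the length and GC correction and 9 to 14 with a library left out (9 without ONP library 1 or 6). At 7 days the count higher was 0 with no filter or the length and GC correction and 0 to 1 with a library left out, and the count lower was 9 with DESeq2, 12 in a single fit and 2 to 7 with a library left out. The interaction count was 0 with RLE size factors, library size only, no filter or the length and GC correction, and 0 to 1 with a library left out. The cause was not tested. Scaling by library size only moved the median of all genes to 0.11 in the ONP over time, 0.18 between regions at 7 days and 0.16 in the interaction.

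None of the differences that changed sign was a call. With limma-voom the log2FC was 0.17 for Tet1 and 0.10 for Tet3 in the ONH over time, 0.11 for Dnmt3a between regions at 30 days and -0.00464 for Dnmt1 in the interaction. With the length and GC correction it was 0.041 for Dnmt1 at 30 days, 0.030 for Tet2 at 7 days and 0.029 for Dnmt3a in the interaction. With library size only it was 0.0061 for Dnmt3c in the ONP over time. For Dnmt1 between regions at 7 days it was -0.016 with DESeq2, -0.010 with RLE size factors, -0.031 with no filter and -0.018 in a single fit. With a library left out it ranged in the ONH over time from -0.30 to 0.0088 for Dnmt3a, from -0.32 to 0.41 for Tet1 and from -0.34 to 0.063 for Tet3, in the ONP over time from -0.50 to 0.28 for Dnmt3c, for Dnmt1 from -0.12 to 0.049 at 30 days, from -0.18 to 0.14 at 7 days and from -0.14 to 0.17 in the interaction, and for Dnmt3b from -1.84 to 0.13 in the interaction.

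With the replicate block at 30 days, 7 genes were higher and 14 lower, with Kmt2b, Tet2 and Kmt2e lost and no other call changed. For the interaction, a limma-voom fit with the 30 day replicate block as a random effect, chosen after seeing the data, called Tet3 alone (-1.56) and put Dnmt3b at 0.34, and the 7 day libraries stayed unpaired. The comparisons over time are between different mice, so they hold no pairs. Between regions at 7 days no paired analysis was made, because the 7 day columns carry no number from the labels. Dnmt3b, Dnmt3c and Kdm4d were too low in counts for a firm value.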
